A study of Mus musculus with 12 samples.

Results

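The untreated cochlea at 12 months of age was described from the 4 control libraries of a series of 12, chosen by their titles and their label of plain drinking water. The study as a whole followed the cochlea of mice given coffee or green tea extract in the water from 3 to 12 months of age. The libraries of those 8 treated samples were not analysed here, and no treatment is compared. The 4 control libraries came from wild-type C57BL/6J mice, with no agent in the water and no engineered allele. This inbred strain loses hearing with age sooner than many others, so the tissue is that of an ageing ear in a susceptible strain. Neither separate animals nor pooling of cochleae is stated for the 4 libraries. Values are FPKM, which count sequenced fragments relative to the length of a gene and the depth of its library and so let genes of unequal length be compared within a library. Values per library are given in the order control 1, 2, 3 and 4, and ± is the SD between them (n = 4).

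The cochlea turns sound into nerve signals in the organ of Corti, where inner hair cells signal to spiral ganglion neurons and outer hair cells amplify the vibration by changing length. The stria vascularis, on the lateral wall, pumps potassium into the endolymph and so keeps up the voltage that drives hair cells, while the fibrocytes of the spiral ligament return potassium to it through gap junctions. This soft tissue is small and sits in a bony capsule with marrow spaces close by, next to the middle ear mucosa, the cranial nerves and the meninges.

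The deposited values covered 34538 Ensembl genes. Each library rested on 20526023 to 24835934 fragments, a depth worked out from the size of the smallest steps in FPKM, and 3 fragments on a gene of 2000 bases were worth 0.0604 to 0.0731 FPKM, a floor for counting error only. Between 25593 and 26638 genes were above 0 in a library. The 4 libraries shared 13954 genes at 1 FPKM or more (40.4% of all), and 15204 genes had a mean of at least 1 FPKM (44%), among them 13564 protein-coding genes and 217 long intergenic RNAs. No pair of libraries held identical values, and Pearson correlations of log2(FPKM + 1) across genes, which are not independent replicates, ran from 0.978 to 0.988.

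A few genes bear on the sex and strain of the libraries. The Y-linked genes Ddx3y, Eif2s3y, Uty and Kdm5d were present in every library, Ddx3y at 14.9, 15.9, 17.6 and 18.2 FPKM, while Xist, the RNA that coats an inactive X chromosome, stayed at or under 0.0278 FPKM. The 4 libraries were alike in this. Nnt, a mitochondrial transhydrogenase that is partly deleted in C57BL/6J, read 0.0825, 0.125, 0.137 and 0.0855 FPKM, which is 14 to 24 fragments, where 3 fragments on this gene were worth 0.0172 to 0.0208 FPKM.

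Transcripts were concentrated in few genes. The 426 genes of highest mean held 50% of the summed FPKM, or 671 when the genes of the mitochondrial genome were left out, and 6628 genes held 90%. The 27 genes of 1000 FPKM or more took 25.9% of the sum, the 381 genes of 100 to 1000 took 23.6%, the 5154 genes of 10 to 100 took 37.8%, and the 9642 genes of 1 to 10 took 11.8%. Of the 100 genes with the highest mean, 86 were among the top 100 of all 4 libraries.

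Mitochondrial transcripts led the ranking and took 10.6%, 10.6%, 10.8% and 14.6% of the summed FPKM in controls 1 to 4. The first gene of all was mt-Co1, a core subunit of cytochrome oxidase, at 13429.9, 12487, 13415 and 17362 FPKM. It was joined among the 25 highest genes by mt-Cytb, of complex III, at 8088 ± 1525, and by mt-Nd1 at 6495 ± 1279.97, mt-Nd2 at 3763 ± 982, mt-Nd4 at 2455 ± 409 and mt-Nd5 at 2097 ± 383 FPKM, subunits of complex I. Control 4 was the highest library in these 6 genes. The nuclear genes of the respiratory chain did not follow that order, since 23 of 29 were highest in control 2, against 29.9% of all genes.

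A stretch of the mitochondrial genome read far lower than its neighbours. From mt-Co2 to mt-Nd4l (mm10 chrM:7013-10173) the 6 protein genes had means of 128 (mt-Co2), 0.155 (mt-Atp8), 45.3 (mt-Atp6), 75.7 (mt-Co3), 13.3 (mt-Nd3) and 6.77 FPKM (mt-Nd4l), between mt-Co1 and mt-Nd4 on either side at 14173 and 2455 FPKM. Pseudogenes annotated side by side on chromosome 1 read from 12.2 to 127 FPKM. The highest were Gm10925 (mm10 chr1:24613974-24614651) at 127 ± 29.8, Gm28661 at 89.1 ± 15.1 and Gm28437 at 59.1 ± 11.6 FPKM. Below them were Gm29216 at 38.4 ± 3.96, Gm28439 at 19.8 ± 6.56 and Gm28438 at 12.2 ± 4.24 FPKM. The pseudogenes were not matched to single mitochondrial genes. The levels of these mitochondrial genes are therefore uncertain, and with them the mitochondrial share of the summed FPKM. The same holds for the levels of other genes with near-identical copies. Whether reads were divided or discarded between the copies was not tested.

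Outside the mitochondrial genome the most abundant transcript was Ptgds, prostaglandin D synthase, an enzyme of meninges and other tissues, at 7680.4, 9133, 7377 and 12909 FPKM. The next was S100a9, a calcium-binding protein that fills neutrophils, at 8216, 5281, 9242 and 6969 FPKM. The ranges of both genes overlapped, and controls 1 and 3 had more S100a9 than Ptgds while controls 2 and 4 had the reverse. The predicted gene Gm23935, whose product is not described in the files, ranked 6 at 3236, 4831, 4763 and 5679.96 FPKM. Fth1, the heavy chain of ferritin, followed at 3096 ± 111, then Apod, a lipid carrier, at 2829 ± 371, and S100a8, the partner of S100a9, at 2617 ± 559 FPKM.

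Coch, which encodes the cochlin of the spiral ligament and is mutated in a form of dominant deafness, was the 12th gene of the whole transcriptome. Its values were 2298, 2313, 2335 and 2317 FPKM, with a CV (SD as a percent of the mean) of 0.653%, the smallest among genes over 1000 FPKM as deposited. Scaled to the whole summed FPKM its CV was 1.83%. Spp1, or osteopontin, stood beside it at 2226 ± 198 FPKM, with 18.8% of its exon bases shared with another gene. Hbb-bs, a beta globin, read 2208 ± 464 and Lyz2, the lysozyme of macrophages and neutrophils, 2136 ± 445 FPKM. The libraries' ranges overlapped between Coch and Spp1, Hbb-bs and S100a8, so the order of these 4 genes was not resolved.

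The rest of the 25 highest named genes mixed inner ear, blood cell and general transcripts. S100b, of fibrocytes and glia, read 1333 ± 171, S100a1, abundant in supporting cells, 989 ± 108, and Fbxo2, a ubiquitin ligase subunit that binds glycoproteins and is strong in the inner ear, 1405 ± 137 FPKM. Neutrophil granule genes were Ngp at 1573 ± 352 and Camp at 935 ± 249 FPKM. The translation genes Eef1a1 (1554 ± 37.2), Rplp1 (1400.1 ± 84.96), Rps3a1 (795 ± 78.3) and Tpt1 (684 ± 49.8) were there too, with Apoe (1353 ± 166), Tmsb4x (1291 ± 159), Itm2b (1042 ± 20.02), B2m (891 ± 117) and the alpha globin Hba-a1 (1161 ± 289.7). The remaining members, Bpifa1 and Gh, varied most between libraries and are described with them.

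**Figure D1:**
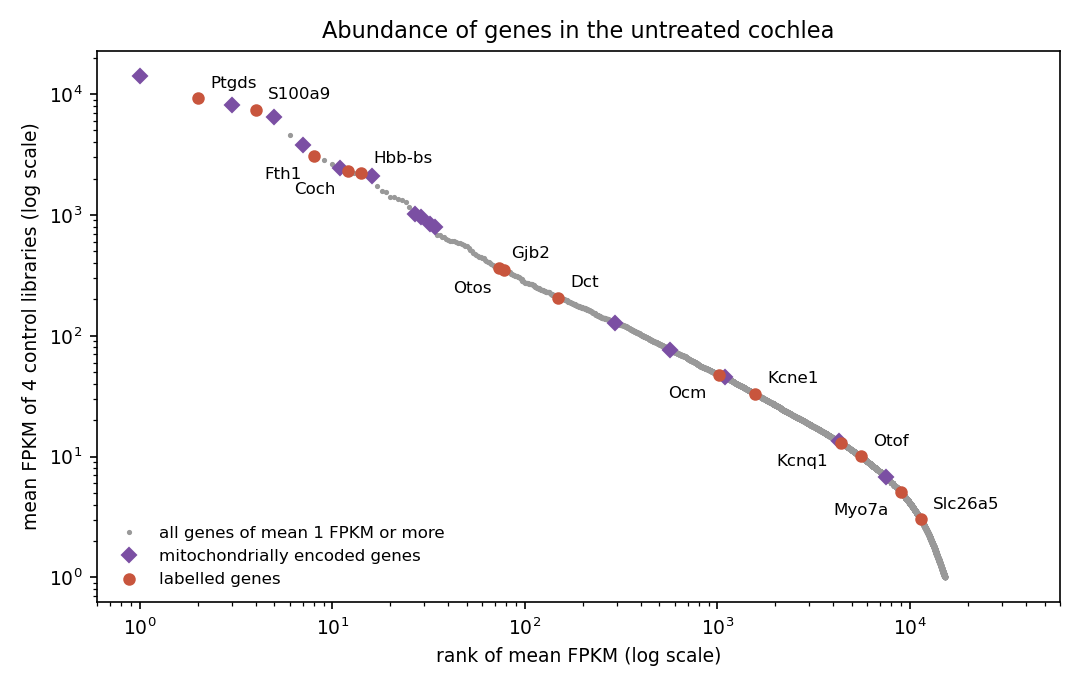
Mean FPKM of the 4 control libraries against rank for the 15204 genes of mean 1 FPKM or more, both axes on log scales, with mitochondrially encoded genes as diamonds and some named genes as circles. Coch lies at rank 12 with 2316 FPKM, among the transcripts of neutrophils and mitochondria, while the outer hair cell gene Slc26a5 lies at 3.03 FPKM.

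Genes of cell types and tissues are described below by lists, and each count of members is to be read against the same count over all 15204 genes of mean 1 FPKM or more. Of all these genes, 22.8%, 29.9%, 28.1% and 19.2% were highest in controls 1 to 4, and 16.9%, 25.9%, 28.3% and 29% were lowest in them. A highest to lowest ratio of at least 2 was found in 13.5%, with 0.1 FPKM added to each value of the ratio, and the median ratio was 1.29. A gene can reach a mean of 1 FPKM through 1 high library alone, and 538 of the 15204 genes did. Such genes are counted below where they weigh on a list.

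Fibrocytes of the lateral wall had the highest summed level among the lists of cochlear cell types, most of it from Coch. The 14 fibrocyte genes summed to 3977, 4099.9, 4229 and 4176 FPKM, 1.18% of the total, and the highest library was 1.06 times the lowest. Beside Coch they included Otos, or otospiralin, at 339, 369, 338 and 342 FPKM. Gjb2 and Gjb6, the connexins of the cochlear gap junctions, read 362 ± 18.6 and 267 ± 32.1, and Slc4a11, a transporter of fibrocytes, 219 ± 25.9 FPKM. Pou3f4, a transcription factor of the otic mesenchyme, read 38.5 ± 4.92 FPKM. All 14 had a mean of at least 1 FPKM, and Slc13a3, at 8.56, 8.64, 4.84 and 17.5 FPKM, was the only one with a highest to lowest ratio of at least 2. The median ratio of the 14 genes was 1.32, near that of all genes.

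Strial genes had a spread near that of all genes, with a median ratio of 1.24. The 19 genes of marginal, intermediate and basal cells, all at a mean of at least 1 FPKM, summed to 975, 1034, 1137 and 1124 FPKM. A ratio of at least 2 was found in 1 of 19, against 13.5% of all genes. Kcnq1, the pore of the potassium channel that secretes into endolymph, read 12.2, 13.4, 14.3 and 12.3 FPKM. Its subunit Kcne1 read 31.1, 33.5, 36.3 and 31.3 FPKM. The 4 libraries lay close together in both. Kcnj10, the potassium channel of intermediate cells, read 53.7 ± 4.52, Slc12a2, the cotransporter that loads marginal cells, 121 ± 16.5, and Slc26a4, or pendrin, 95.1 ± 18.5 FPKM. Control 1 was the lowest library for 9 of the 19 genes, against 16.9% of all genes.

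Melanocytes, which form the intermediate cell layer, showed Dct, an enzyme of melanin synthesis, at 172, 193, 232 and 228 FPKM. Control 1 was again the lowest, and controls 3 and 4 the highest. Tyr, the enzyme that starts melanin synthesis, read 3.87, 5.33, 6.45 and 5.94 FPKM, with the same library lowest. The melanin enzyme Tyrp1 was low beside Dct, at 0.463 ± 0.168 FPKM.

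Hair cell genes were present at low to moderate levels. Ocm, or oncomodulin, the calcium buffer of outer hair cells, read 47.7, 49.8, 48.2 and 44.7 FPKM. Slc26a5, or prestin, the motor protein of those cells, read 2.87, 3.31, 2.94 and 3.01 FPKM. Both differed little between libraries, and the 10 outer hair cell genes summed to 90.6, 89.5, 86.7 and 86.5 FPKM. Sri and Ocm made up most of that sum, so it says little of the acetylcholine receptor genes Chrna10 at 2.28 ± 0.780 and Chrna9 at 1.35 ± 0.261 FPKM.

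Genes shared by hair cells of the cochlea and the vestibular organs varied more. Otof, or otoferlin, needed for transmitter release at the hair cell synapse, read 12.3, 13.7, 8.50 and 5.75 FPKM. Pou4f3, a transcription factor that hair cells need, read 6.57, 6.34, 4.11 and 3.42 FPKM, and Loxhd1, of the hair bundle, 2.67, 3.18, 2.06 and 0.858 FPKM. In all 3 genes controls 1 and 2 were above controls 3 and 4, and control 4 was the lowest. Of the 21 hair cell genes with a mean of at least 1 FPKM, out of 28 listed, 6 had a ratio of at least 2, against 13.5% of all genes. Of the same 21, 14 were lowest in control 4, against 29% of all genes. The list's summed FPKM does not show this, since Pvalb, at 194, 107, 312 and 245 FPKM, is also a muscle gene and was highest in control 3, and Calb2, at 179.7 ± 28.1 FPKM, was highest in control 4. Myo7a, the motor of stereocilia, read 5.10 ± 0.979 FPKM. In bulk tissue, fewer cells of a type and less RNA per cell cannot be told apart.

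Supporting cell genes had no common order. Sox2, a transcription factor of supporting cells and of glia, read 11.9, 10.4, 15.01 and 9.21 FPKM, and Fgfr3 8.86 ± 1.16, Jag1 8.14 ± 0.392 and Lgr5 4.88 ± 1.32 FPKM. Ngfr, a neurotrophin receptor that pillar cells share with peripheral neurons and Schwann cells, read 11.1, 78.6, 8.04 and 8.36 FPKM, with control 2 far above the others. Hes5, a Notch target, had a mean of 0.0977 FPKM, and 31.8% of its exon bases are shared with another gene.

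The proteins of the tectorial membrane and other acellular matrices were led by Ceacam16, a secreted adhesion protein, at 209, 270.4, 189 and 219 FPKM. Epyc, a small proteoglycan, read 119.9, 138, 156 and 124 FPKM. Both are uncertain because 23.2% and 40.6% of their exon bases are shared with other genes. Col11a2, a fibrillar collagen subunit, read 90.1 ± 9.59, Otog, or otogelin, 20.9 ± 8.68 and Otoa, or otoancorin, 13.9 ± 2.49 FPKM. Tecta, the alpha tectorin that is made mainly during development, read 2.12, 2.14, 1.06 and 0.621 FPKM. Control 2 was highest in 8 of the 10 genes of mean 1 FPKM or more, against 29.9% of all genes, and Tecta and Otog were lowest in control 4.

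Nox3 differed widely between libraries. This oxidase, known for its part in forming the otoconia of the vestibular organs and also found in the cochlea, read 22.8, 16.1, 0.719 and 17.3 FPKM. Control 3 was far below the other libraries, and the ratio was 28.0. Otop1, also needed for otoconia, read 2.13, 5.52, 1.28 and 3.01 FPKM. Oc90, an otoconial matrix protein, read 0.217, 0.612, 0.0421 and 0.382 FPKM. Control 3 was again the lowest in both. Otol1, or otolin, read 5.66, 5.34, 3.28 and 2.78 FPKM, where controls 3 and 4 were both low, and Anxa4, of hair cells and other epithelia, 11.8, 11.5, 14.1 and 13.4 FPKM, where control 3 was the highest. The share of vestibular tissue in each library is not given in the labels.

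The 83 listed genes of hereditary deafness were all found in the files, and 74 had a mean of at least 1 FPKM, 36 of at least 10 and 5 of at least 100. The 5 were Coch, Gjb2, the actin Actg1 at 353 ± 17.7, Gjb6 and Ceacam16. The median of the 83 genes was 7.79 FPKM, and that of all genes of mean 1 FPKM or more was 6.61. Of the 74, 8 had a ratio of at least 2, against 13.5% of all genes, and these were Edn3, Loxhd1, Tecta, Otog, Gipc3, Otof, Lhfpl5 and Whrn. The first 7 were highest in control 2 and Whrn, a scaffold protein of stereocilia, was highest in control 1 at 7.68, 4.18, 3.64 and 7.06 FPKM. Edn3, the endothelin that melanocyte precursors need, read 0.544, 2.31, 0.617 and 0.711 FPKM. It was the 1 gene of the 74 that reached a mean of 1 FPKM through its highest library alone. The other 9 genes were under 1 FPKM, with Dspp at 0.00468 the lowest. Cdh23, the tip link cadherin whose C57BL/6J allele is known to speed hearing loss, read 0.857, 0.869, 0.551 and 0.563 FPKM.

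**Figure D2:**
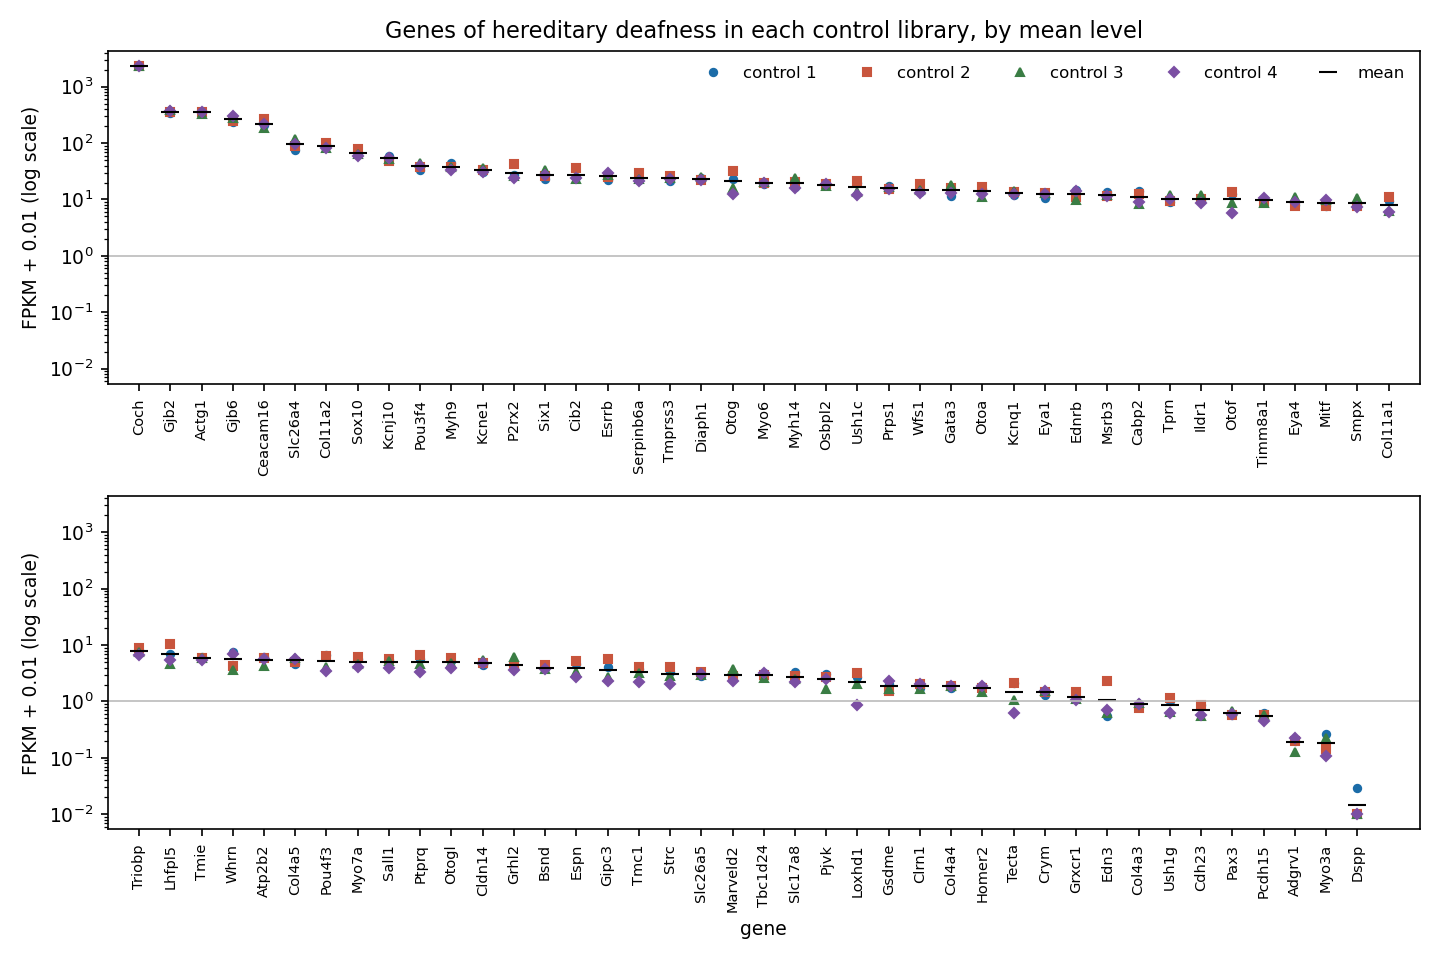
FPKM + 0.01 (log scale) of 81 of the 83 deafness genes in each control library, ordered by mean, with the mean as a bar and a line at 1 FPKM. Coch stands at 2316 FPKM, the connexins Gjb2 and Gjb6 at 362 and 267, and 8 of the genes drawn lie under 1 FPKM.

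Neuronal genes were present in every library but differed in amount. The 27 genes of the ganglion list summed to 990.1, 1641, 649 and 1015 FPKM, highest in control 2 and lowest in control 3, at a ratio of 2.53. Control 3 was the lowest library for 23 of the 27 genes, against 28.3% of all genes. Nefh, the heavy neurofilament of large axons, read 99.4, 82.7, 78.1 and 115 FPKM. Nefl, the light neurofilament, read 63.4, 62.9, 40.8 and 67.8 FPKM. Both were highest in control 4 and lowest in control 3. Tubb3, a neuronal tubulin, read 80.7, 224, 40.2 and 63.5 FPKM, and Slc17a7, a vesicular glutamate transporter of spiral ganglion neurons, 20.9, 12.8, 10.7 and 20.1 FPKM. Control 2 had the highest Tubb3 but a low Slc17a7, so the neuronal genes did not move as one. Without control 2 the ratio of the summed list was 1.56, and without control 3 it was 1.66. Here and below, such a ratio can only fall or stay when a library is left out.

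Genes of peripheral and central myelin shared some of their order. Of the 16 Schwann cell and myelin genes of mean 1 FPKM or more, 11 were highest in control 4, against 19.2% of all genes, and 9 were lowest in control 3, against 28.3%. Of the 9 central glia genes 6 were lowest in control 3 as well and 3 in control 2. Several genes of the first list, such as Mbp, are also made by oligodendrocytes. Prx, or periaxin, of Schwann cell myelin, read 8.04, 13.3, 7.51 and 12.7 FPKM. Controls 2 and 4 were high. Mobp, a myelin protein of oligodendrocytes, read 60.2, 19.3, 16.8 and 58.97 FPKM. Mog, on the outside of their myelin, read 10.9, 3.26, 2.13 and 7.79 FPKM. Here controls 1 and 4 were high. Gfap, the filament of astrocytes that some Schwann cells also make, read 54.3, 18.9, 31.8 and 84.6 FPKM and was also high in controls 1 and 4. Mbp, shared by both kinds of myelin, read 199.9, 102, 78.9 and 219 FPKM. Among the 9 central glia genes, 8 had a ratio of at least 2, against 13.5% of all genes. The exception was Cldn11, which strial basal cells also make, at 159, 156, 171 and 190.4 FPKM. Of the 9, 1 reached a mean of 1 FPKM through its highest library alone, and of the other 8, 7 had a ratio of at least 2.

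Transcripts of blood and marrow cells took a large share of the summed FPKM. The 16 neutrophil genes alone took 4.33% of the summed FPKM, with sums of 17519, 11096, 17828 and 14154 FPKM in which control 2 was the lowest. Genes of granule formation in marrow precursors were there too. Elane, the neutrophil elastase, read 302, 183, 205 and 97.8 FPKM. Mpo, the myeloperoxidase, read 89.8, 54.8, 62.4 and 24.5 FPKM. Both were lowest in control 4, as were all 9 genes of that list, against 29% of all genes. The 10 megakaryocyte and platelet genes were lowest in control 4 as well, led by Ppbp, a platelet chemokine, at 170.2, 74.9, 136 and 24.9 FPKM. Pf4, another platelet chemokine, read 84.98, 47.3, 85.4 and 29.1 FPKM. All 10 had a ratio of at least 2, against 13.5% of all genes, and 9 of them were highest in control 1, against 22.8%. Without control 4 the ratio of the summed list was 1.98 in place of 4.49, and that of the granule list 1.63 in place of 2.90.

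The erythroid list split. Globin transcripts were highest in control 4, with Hbb-bs at 1631, 2115, 2343 and 2743 FPKM. The split into Hbb-bs and Hbb-bt, and into Hba-a1 and Hba-a2, is uncertain because these are near-identical copies. Of the 19 erythroid genes 13 were lowest in control 4, against 29% of all genes, 5 in control 1 and 1 in control 2. Among those lowest in control 4 was Klf1, the erythroid transcription factor, at 5.55, 2.10, 5.32 and 0.815 FPKM. Hemgn, a nuclear protein of red cell precursors, read 9.46, 2.37, 10.1 and 0.839 FPKM. In both genes controls 1 and 3 were high and control 2 low. The 20 genes of cell division had a like order, with Mki67, a marker of cycling cells, at 24.3, 11.8, 24.9 and 9.84 FPKM. Top2a, a topoisomerase, read 16.2, 8.41, 14.6 and 6.85 FPKM, and 18 of the 20 were lowest in control 4, against 29% of all genes. The ratio of their sum was 2.09, without control 1 it was 1.98 and without control 4 it was 1.76.

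Of the 18 macrophage genes 13 were highest in control 1, against 22.8% of all genes, and 11 were lowest in control 2, against 25.9%. C1qa, a complement subunit of tissue macrophages, read 98.6, 87.1, 96.3 and 100.05 FPKM. Csf1r, the receptor they depend on, read 33.04, 25.7, 21.5 and 23.96 FPKM, and 2 of the 18 genes had a ratio of at least 2, near the 13.5% of all genes. Lymphoid genes were low apart from immunoglobulins. Igkc, the kappa constant region, read 575, 272, 252 and 285 FPKM. Ighm, the mu constant region, read 205, 59.3, 64.7 and 101 FPKM. Control 1 was the highest in both. Of 239 variable segments in the files 97 had a mean of at least 1 FPKM, and 94 of these had a ratio of at least 2, against 13.5% of all genes. Of the 97, 23 reached that mean through 1 library alone, which gives a large ratio by itself, and of the other 74, 71 had a ratio of at least 2. Control 1 was highest for 55 of the 97, control 4 for 23, control 2 for 10 and control 3 for 9. The shares over all genes were 22.8%, 19.2%, 29.9% and 28.1% in the same order. For the 23 segments that rest on 1 library, the highest library is fixed by the filter. Among the other 74 the counts were 42 in control 1, 17 in control 4, 7 in control 2 and 8 in control 3. The segments share sequence, so values of single segments are uncertain. The T cell genes Cd3e and Cd8a read 0.379 ± 0.106 and 0.575 ± 0.147 FPKM.

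Bone, cartilage and vessel genes told the libraries apart unequally. Col1a1, the main collagen of bone, read 335, 244, 117 and 83.5 FPKM, and Bglap2, an osteocalcin with a near-identical copy, 172, 294, 78.05 and 58.1 FPKM. Controls 1 and 2 were above controls 3 and 4 in both, and the same held for the osteocyte gene Mepe at 15.99, 16.6, 4.88 and 6.82 FPKM and for Sost, or sclerostin, at 7.95, 6.70, 2.83 and 2.41 FPKM. Of the 17 osteoblast and osteocyte genes of mean 1 FPKM or more, 11 had a ratio of at least 2, against 13.5% of all genes. Ctsk, the collagen-cutting protease of osteoclasts, read 191, 159.8, 145 and 81.01 FPKM. Acp5, their acid phosphatase, read 94.2, 79.7, 57.9 and 35.3 FPKM. All 10 osteoclast genes of mean 1 FPKM or more were highest in control 1, against 22.8% of all genes. Ucma, of cartilage, read 239, 251, 213 and 221 FPKM, and none of 11 cartilage genes had a ratio of at least 2, a count too small to stand apart from the 13.5% of all genes. The 18 endothelial genes summed to 215, 218, 209.6 and 214 FPKM, at a ratio of 1.04, the smallest of the 44 lists. Without their highest member it was 1.18, above that of the reference, deafness, cartilage and outer hair cell lists taken the same way, and 10 of the 18 genes were highest in control 1, against 22.8% of all genes.

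The spread between libraries was larger than counting error. The median CV of the 15204 genes was 11.5% (quartiles 7.15% and 21.1%), and counting error alone gave a median of 3.88%. For genes of 1 to 10 FPKM the median CV was 14.1%, for those of 10 to 100 it was 8.80%, for those of 100 to 1000 it was 8.52% and for the 27 above 1000 it was 18.2%. The last class holds 7 mitochondrial genes and several of blood cells. A highest to lowest ratio of at least 2 was found for 2058 genes and of at least 5 for 443, and the median ratio of all genes was 1.29. Of the 2058 genes, 636 were highest in control 2, 587 in control 3, 510 in control 1 and 325 in control 4. Control 3 was the lowest library for 779 of them and control 4 for 666, but control 1 for 170. In pairs, 3.98% (controls 1 and 4) to 7.37% (controls 2 and 3) of genes differed by at least 2 times.

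**Figure D3:**
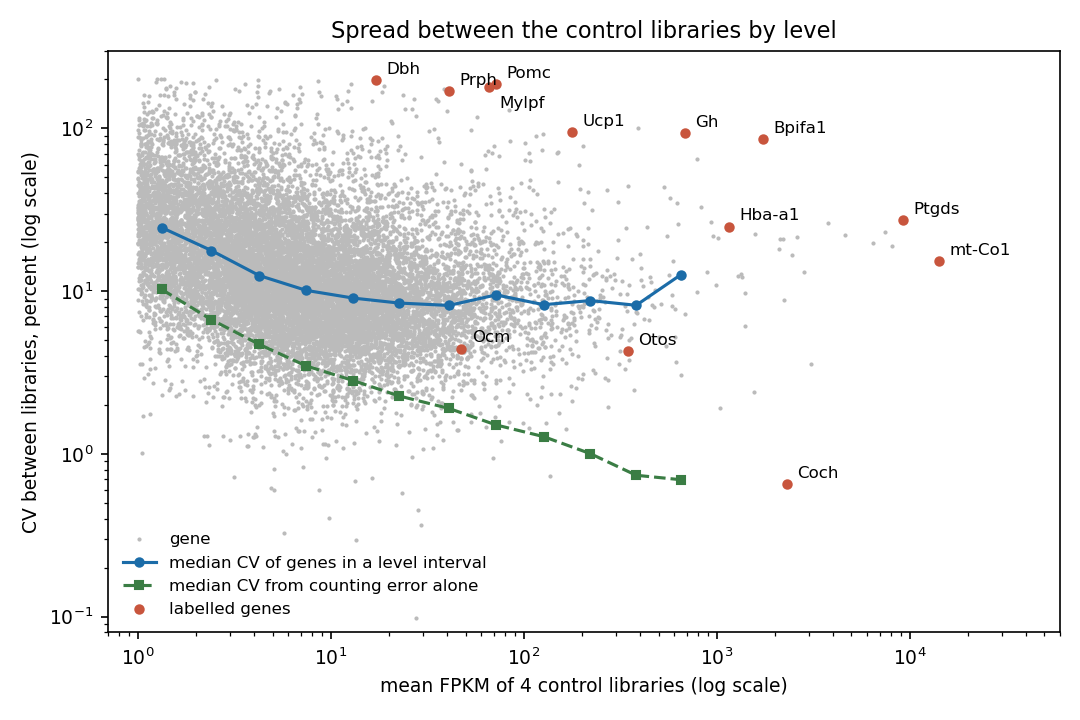
CV between the 4 control libraries (percent, log scale) against mean FPKM (log scale) for each gene of mean 1 FPKM or more, with the median CV and the median expected from counting error in level intervals that hold 20 or more genes. The measured median lies above the counting line throughout, Coch lies at 0.653%, above its own counting error of 0.249%, and Dbh, Pomc, Mylpf and Prph lie at the top.

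The most even genes in the deposited FPKM were Coch and a set of general cell genes. Tomm20, of the mitochondrial import pore, read 27.71, 27.74, 27.67 and 27.68 FPKM, a CV of 0.0988% where counting error alone would give 1.78%. Usf2, a transcription factor, read 13.56, 13.58, 13.64 and 13.63 FPKM. Adcy9, an adenylate cyclase, read 5.70, 5.70, 5.72 and 5.67 FPKM. Among the 9069 genes of mean 5 FPKM or more, the 15 of lowest CV were these with Aplp2, Med30, Commd3, Gps2, Rab28, Ncoa3, Ralgapb, Evi5, Tap2, Prkrip1 and Ndufaf6. They were picked as the smallest values of so many, so their evenness is a description. It also rests on the scaling, since their CVs, 0.0988% to 0.827% as deposited, were 1.60% to 2.66% when scaled to the whole summed FPKM, 0.780% to 1.69% without mitochondrial genes in that sum and 0.830% to 1.65% by the median of ratios. Coch, at 0.653% against 0.249%, and Aplp2, at 0.735% against 0.732%, were above their counting error as deposited. Of the genes often used as references, Hprt read 71.04, 71.8, 68.8 and 72.4 FPKM. Ywhaz read 99.4 ± 1.55, Ppia 264 ± 7.68 and Actb 609 ± 47.6 FPKM. Gapdh read 41.5, 48.3, 37.6 and 46.2 FPKM, below Hprt, and is uncertain because it has many near-identical pseudogenes. The 81 expressed ribosomal protein genes took 4.25% to 4.84% of the summed FPKM, and 1 of them had a ratio of at least 2, against 13.5% of all genes. Of the 695 listed genes, 13 averaged under 0.1 FPKM, among them Lep, Snorc, Matn3, Dspp, Mt2, Pmp2, Scgb1a1, Muc5ac, Xist, Ttn, Myh2 and Hes5. Mt2 shares 73.5% of its exon bases with another gene.

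**Figure D4:**
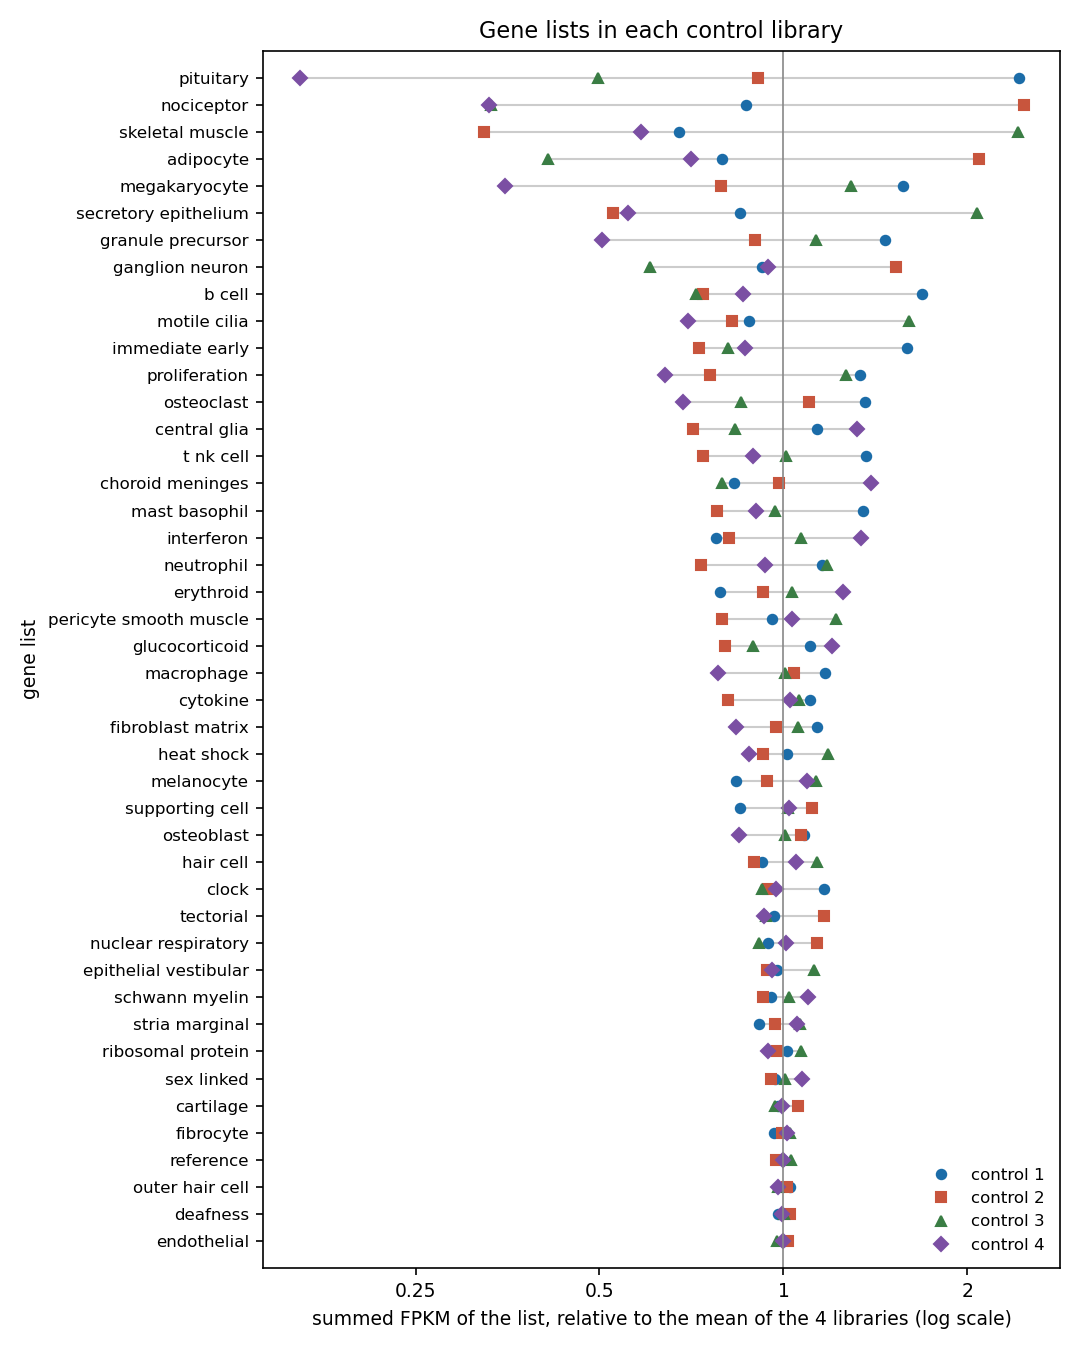
Summed FPKM of 44 gene lists in each control library, relative to the mean of the 4 libraries (log scale), ordered by the highest to lowest ratio. The pituitary list spans a ratio of 15.1 and 12 lists span at least 2, while the fibrocyte, outer hair cell, deafness and endothelial lists span 1.04 to 1.06.

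Each library had its own set of leading genes. In the 12 lists with a summed ratio of at least 2, the highest library was control 1 for 6, control 2 for 3 and control 3 for 3. Genes of the lateral wall, outer hair cells, cartilage and vessels were not among these lists.

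Control 1 stood out by pituitary hormones. Gh, growth hormone, read 1577, 688, 355 and 120.2 FPKM and ranked between 18 and 317. Pomc, the precursor of corticotropin, read 272, 6.91, 6.29 and 1.14 FPKM, and Prl, prolactin, 76.9, 25.1, 23.5 and 4.09 FPKM. Control 1 was the highest for all 3, control 4 the lowest, and Gh and Prl were also well above the floor in controls 2 and 3. The gonadotropin subunit Cga, which shares 32.0% of its exon bases with another gene, read 7.56, 2.14, 3.42 and 0.541 FPKM. Lhb, which shares 20.4%, read 6.11, 2.44, 7.13 and 2.98 FPKM and was highest in control 3. Without control 1 the ratio of the summed list was 5.62 in place of 15.1, and without control 4 it was 4.90.

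Control 1 was also the highest in genes that respond to stimulation within minutes. Fos read 37.7, 12.5, 11.2 and 10.96 FPKM, Egr1 37.4, 9.54, 9.37 and 9.33 FPKM and Nr4a1 46.6, 17.3, 10.99 and 13.9 FPKM. The other 3 libraries lay close together in Fos and Egr1. Of the 16 immediate early genes of mean 1 FPKM or more, 13 were highest in control 1, against 22.8% of all genes. A ratio of at least 2 was found in 11, against 13.5%. Of the 16, 1 reached that mean through its highest library alone. Of the other 15, 12 were highest in control 1 and 10 had a ratio of at least 2. Without control 1 the ratio of the summed list was 1.19 in place of 2.19, without control 2 it was 1.96, and without control 1 that of the B cell list was 1.19 in place of 2.34.

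Control 2 stood out by genes of peripheral neurons. Th, the first enzyme of noradrenaline synthesis, read 0.982, 48.3, 0.869 and 0.745 FPKM. Dbh, the last enzyme, read 0.185, 68.1, 0 and 0.192 FPKM, and Slc6a2, the noradrenaline transporter, 0.316, 33.5, 0.160 and 0.212 FPKM. In the other 3 libraries all 3 genes were under 1 FPKM. A set of 13 genes of sympathetic neurons, chosen after these values were seen, summed to 20.8, 301.1, 16.6 and 16.7 FPKM. All 13 were highest in control 2, against 29.9% of all genes. A mean of 1 FPKM was reached by 9 of them through that library alone, which fixes their highest library. Among these 9 was the transcription factor Hand2 at 0.123, 6.82, 0 and 0.165 FPKM. The other 4 were also highest in control 2, and 3 of them had a ratio of at least 2, against 13.5% of all genes. Without control 2 the ratio of the summed 13 genes was 1.25 in place of 18.2.

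Sensory neuron genes of other ganglia were also highest in control 2. P2rx3, an ATP-gated channel, read 2.10, 16.6, 0.188 and 0.231 FPKM, and Scn10a, a sodium channel of pain fibres, 1.10, 11.5, 0.111 and 0.00540 FPKM. Control 1 came second in both, and controls 3 and 4 were under 1 FPKM. Of 12 listed genes 9 had a mean of at least 1 FPKM, and 4 of these, among them P2rx3 and Scn10a, did so through control 2 alone, which fixes their highest library. The other 5 were also highest in control 2, against 29.9% of all genes. Without that library the ratio of the list was 2.63 in place of 7.49. Prph, or peripherin, the filament of small peripheral neurons, read 16.9, 145, 1.60 and 1.13 FPKM, and Htr3a, a serotonin-gated channel, 3.74, 70.5, 0.522 and 0.970 FPKM.

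Fat genes followed the same library. Ucp1, the uncoupling protein of brown fat, read 128, 423, 47.4 and 111 FPKM, and Cidea, of lipid droplets in brown fat, 27.7, 79.98, 11.5 and 26.8 FPKM. Fabp4, a fatty acid carrier, read 49.6, 138, 26.00 and 60.2 FPKM. Control 2 was the highest in all 3 and control 3 the lowest, and 10 of 11 adipocyte genes were highest in control 2, against 29.9% of all genes. Brown fat transcripts were present in every library, at a lowest value of 47.4 FPKM for Ucp1. Without control 2 the ratio of the list was 1.93 in place of 5.08, and without control 3 it was 2.96.

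Control 3 stood out by skeletal muscle and by stratified and secretory epithelium. Mylpf, a fast muscle light chain, read 15.4, 1.93, 245 and 3.32 FPKM, Acta1, the muscle actin, 20.8, 0.603, 114 and 4.78 FPKM, and Ckm, muscle creatine kinase, 5.15, 0.134, 43.6 and 0.413 FPKM. Control 1 was second in these genes and control 2 the lowest. Of 15 muscle genes, 14 were highest in control 3, against 28.1% of all genes, and Myh2 and Ttn stayed under 0.1 FPKM on average. Without control 3 the ratio of the list was 2.09 in place of 7.46, and without control 2 it was 4.14. These ratios rest largely on Pvalb, also a hair cell gene, at 194, 107, 312 and 245 FPKM. The whole list summed to 329, 158, 1178 and 284 FPKM, so Pvalb made up most of it in controls 1, 2 and 4. With Pvalb left out, the ratio over the 4 libraries was 22.1.

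Bpifa1, a secreted protein of airway and middle ear mucosa, read 1279.6, 791, 3958 and 922 FPKM and was thus abundant in every library and highest in control 3. Reg3g, an antimicrobial lectin, read 54.7, 23.6, 246 and 12.8 FPKM. Sftpd, a surfactant protein, read 3.09, 1.79, 35.8 and 1.97 FPKM. All were highest in control 3. The basal keratin Krt5 read 1.40, 0.400, 19.5 and 0.334 FPKM. Krt5 reached a mean of 1 FPKM through control 3 alone, which fixes its highest library. Its partner Krt14 read 2.74, 1.77, 29.9 and 1.25 FPKM, with control 3 again the highest. The 13 genes of motile cilia, which line the middle ear mucosa, were all highest in control 3, against 28.1% of all genes. Of these, 1 reached a mean of 1 FPKM through that library alone. Foxj1, their master regulator, read 14.4, 13.2, 31.4 and 11.2 FPKM. Without control 3 the ratio of the ciliary list was 1.26 in place of 2.30 and without control 4 it was 1.95, while that of the secretory list without control 3 was 1.61 in place of 3.94. Among 12 secretory genes of mean 1 FPKM or more, 2 reached it through their highest library alone. Control 3 was highest for 9 of the other 10, against 28.1% of all genes. The secretory sum also holds Ltf and Lcn2, which are counted in the neutrophil list too.

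The sum of the heat shock and chaperone genes was mildly higher in control 3, while 3 of the 20 genes had a ratio of at least 2, against 13.5% of all genes. Hspa8, the constitutive chaperone, read 593, 529.6, 648 and 486 FPKM. Hsp90aa1 read 317, 275, 391 and 246 FPKM, and the inducible Hspa1b, a near-identical copy of Hspa1a, 28.2, 21.03, 82.1 and 12.8 FPKM. Control 3 was the highest for 19 of the 20 genes, against 28.1% of all genes, and the summed ratio was 1.35. Serpinh1, the collagen chaperone, read 172, 157, 164 and 147 FPKM and was the exception.

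Control 4 stood out by mitochondrial transcripts, globins, Ptgds and interferon response genes. Slc6a13, a GABA and taurine transporter of meninges and other barrier tissue, read 11.9, 13.4, 10.6 and 42.1 FPKM, and Slc47a1, an exporter of organic cations, 48.9, 47.97, 34.8 and 76.8 FPKM. Of 10 genes of the choroid and meninges list, 9 were highest in control 4, against 19.2% of all genes. Ifit3, an antiviral protein, read 42.4, 29.98, 44.6 and 95.6 FPKM. Isg15, a modifier induced by interferon, read 23.7, 20.7, 41.8 and 50.7 FPKM, and Cxcl10, a chemokine induced by interferon, 1.68, 1.97, 4.90 and 12.7 FPKM. Of 20 interferon genes, 13 were highest in control 4, against 19.2% of all genes, and control 2 was the lowest for 14, against 25.9%. Without control 4 the ratio of the choroid and meninges list was 1.24 in place of 1.75. That of the interferon list was 1.38 in place of 1.73, so both lists were under 2 with all 4 libraries. Ptgds made up most of the choroid and meninges sum, and without Ptgds its ratio over the 4 libraries was 2.02. The interferon list without its own highest member had a ratio of 2.05.

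**Figure D5:**
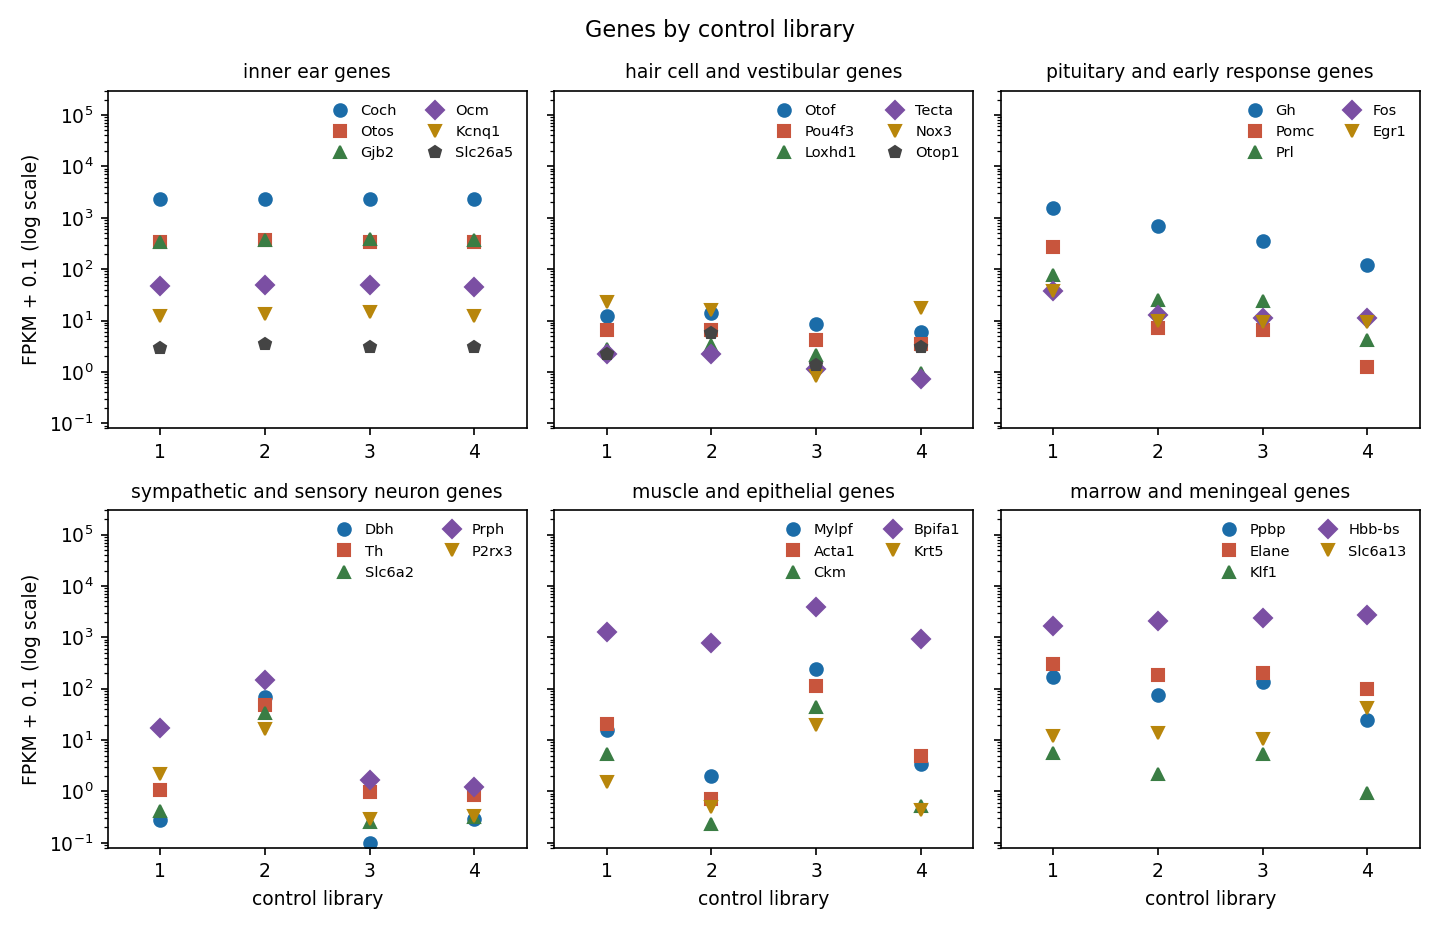
FPKM + 0.1 (log scale) of named genes in each of the 4 control libraries, in 6 panels, where each point is 1 library. The inner ear genes drawn in their own panel, such as Coch, Otos and Ocm, lie level. Those of the hair cell and vestibular panel do not. Otof reads 12.3, 13.7, 8.50 and 5.75 FPKM there, and Nox3 22.8, 16.1, 0.719 and 17.3 FPKM. Pituitary genes are highest in control 1, sympathetic and sensory neuron genes in control 2 and muscle and epithelial genes in control 3.

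The part of the tissues outside the cochlear duct and lateral wall in the spread of other genes was not tested.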

How the data were processed

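RNA of the cochlea was sequenced from total RNA taken with Trizol and a stranded mRNA kit (TruSeq), per the labels' protocols. The authors deposited FPKM, 1 value per Ensembl gene and library. Cufflinks, HISAT2, HTSeq and Trimmomatic and the genome build mm10 are named in the submitters' processing notes, with no role or version. The annotation, filters and strand setting were not given in the sources used here, so a gene that overlaps the exons of another has an uncertain value.

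The 4 control libraries were used as deposited, without rescaling, and the 8 treated libraries were left out. Symbols and exon lengths came from GENCODE M21, which matched 34459 of 34538 genes. With these lengths and 1 factor per library, 31958 genes (92.5%) came out as whole fragments within 0.01 fragments in every library, which gave the counting errors. Counting errors and floors cover counting only.

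The SD, the CV and the ratio of the highest to the lowest library (0.1 FPKM added to both values of the ratio) were computed with pandas 2.3.3 and numpy 2.4.6 for genes of mean 1 FPKM or more. The ratio threshold was 2. Simulated data of known spread, for genes of mean 5 FPKM or more only, were used to test these steps. Genes of lower mean were not covered by that check. There is 1 group, so no comparison between groups and no p-value is given, and the spread between libraries may be technical.

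The 45 gene lists held 695 distinct genes, all matched. Of these lists 1 checks the strain only, and the other 44 are compared in the text. Genes named were the 25 highest by mean outside the mitochondrial genome with a symbol that is not a clone name, mitochondrial genes as a class, up to 5 leading members of each list and members under 0.1 FPKM, the 15 highest and 15 lowest CV at a mean of 5 FPKM or more, and a fixed set of cochlear and reference genes. A few named genes are left out of the text. Other list members are given as examples chosen after their values were seen. The members, lists and rules were chosen with earlier results of these data known. Alternatives were other filters, ratios and scalings, leaving out each library, and for the lists leaving out the highest member or taking a mean of logs.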

Additional observations from a re-analysis of the deposited data

Results flagged for a closer look

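Of 124 values examined, 24 had 1 library apart from the other 3 by most of the whole range (the 95% critical value of Dixon for 4 samples). The 15 genes of highest CV were among the 124 and all 15 were so, which their choice by CV fixes. Of the other 109 values 9 were, where chance flags about 1 in 20 groups of independent values. The 109 are not independent, since list sums stand beside their own members. Some were also chosen by abundance or with earlier results known, so these rates cannot be compared. The values below are those of the library that stood apart, in FPKM unless stated.

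Control 1 was apart in the summed B cell genes at 866 FPKM, in the summed immediate early genes at 415 FPKM and in Pomc at 272 FPKM, and it was the lowest library in S100a1 at 829.8 FPKM.

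Control 2 was apart in the summed tectorial genes at 581 FPKM and in Otos at 369 FPKM, although the 4 values of Otos differ little. It was also apart in neuronal genes, Prph at 145 FPKM, Htr3a at 70.5, Dbh at 68.1, Npy at 64.6, Th at 48.3, Slc6a2 at 33.5 and Pirt at 30.4, and in Sbpl at 140.8 FPKM.

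Control 3 was apart in the summed skeletal muscle genes at 1178 FPKM, with Mylpf at 245 FPKM, Tnni2 at 80.3, Ckm at 43.6 and Myoz1 at 24.2. It was apart in the epithelial genes Bpifa1 at 3958 FPKM, Krt17 at 25.6 and Krt5 at 19.5.

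Control 4 was apart in Hba-a1 at 1593 FPKM and in the mitochondrial share of the summed FPKM at 14.6%.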

How the results depend on the processing

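Scaling to the whole summed FPKM (TPM), to the sum without mitochondrial genes or by the median of ratios moved no count of genes by 1.5 times, though genes highest in control 4 went from 2919 to 2083 with TPM. These scalings moved the CV of 13 to 15 of 30 named genes. The number of genes holding 50% of the sum stayed between 407 and 455 without 1 library. A filter at 5 FPKM left 8125 genes above it in all 4 libraries, 609 with a ratio of at least 2, and 1844, 2906, 2669 and 1650 highest in controls 1 to 4. With no filter these became 8620 and 7727, 8463, 7426 and 7058, and the median CV 30.9%. Adding 1 FPKM in the ratio gave 1217 genes, and a ratio of 3 gave 880. Leaving out 1 library gave 1266 (without control 3) to 1747 genes with a ratio of at least 2, and 4512 to 5678 genes highest in control 1. Between 8 and 9 lists then had a summed ratio of at least 2, in place of 12. The ratio of a gene or list cannot rise when a library is left out, and genes highest in that library pass to the others. The direction of these changes was thus largely fixed in advance. When the member of highest mean was left out of each list instead, 16 lists had a summed ratio of at least 2. The lists added were osteoblast (1.28 to 2.77), central glia (1.85 to 3.48), interferon (1.73 to 2.05) and choroid and meninges (1.75 to 2.02). Taking the mean log2(FPKM + 1) of the members in place of the sum gave 9 lists. Genes near the floor of 3 fragments are limited by depth. No paired analysis was possible because there is 1 group and no test.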

Other observations

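Some transcripts of specialised tissues were found in every control library, chosen for mention after their values were seen. Growth hormone was never below 120.2 FPKM (Gh), the mucosal protein gene Bpifa1 never below 791 FPKM and the brown fat gene Ucp1 never below 47.4 FPKM. The clock genes, which vary with the time of day in many tissues, had a ratio of at least 2 in 2 of 15 cases, near the 13.5% of all genes, and 9 of the 15 were highest in control 1, against 22.8% of all genes. Nr1d1, a repressor of the clock, read 19.1, 17.5, 14.3 and 17.1 FPKM, Dbp, a clock output gene, 11.4, 7.44, 5.65 and 6.72 FPKM, and Arntl, the activator, 2.67, 3.96, 3.77 and 3.60 FPKM. Control 1 was the highest in Nr1d1 and Dbp and the lowest in Arntl. Time of tissue collection is not given in the labels.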
